A study of Homo sapiens with 8 samples.

Results

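The 9 genes described here belong to transforming growth factor beta (TGF-beta) signalling: the ligands TGFB1 and TGFB2, the receptors TGFBR1 and TGFBR2, the signal transducers SMAD2, SMAD3 and SMAD4, the inhibitory SMAD7, and PMEPA1, a target gene whose product restrains the pathway. They were chosen by symbol from a table of 17056 genes. All 9 were found there, and all 9 passed the filter of a mean of at least 1 FPKM (fragments scaled by transcript length and library size), which left 10648 genes for testing. RNA-seq was done in 4 groups of 2 libraries, all of A549 cells, a human line established from a lung adenocarcinoma. In the ASO group the long non-coding RNA AFAP1-AS1 was knocked down, and ASONC is the negative control of that knockdown. In the OE group AFAP1-AS1 was overexpressed, and vector is its control. The labels give no dose, time or clone, do not spell out ASO, and do not say how the RNA was overexpressed. Whether the libraries of a group are separate cultures is not stated either, and the p-values therefore reflect only how far these libraries spread, possibly for technical reasons alone. AFAP1-AS1 is not analysed here, so its level could not be used to check the labels.

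Between 33359120 and 37172055 reads per library were recovered from the deposited values. The ASONC libraries had 1435 and 1341 genes at 0, whereas the other 6 libraries had between 2205 and 2327. The epithelial keratin genes KRT8 and KRT18 lay between 981 and 1317 FPKM in every library. EPCAM, another epithelial marker, was at 0.862 FPKM or lower in all 8 libraries, and CDH1, which encodes E-cadherin, at 4.42 FPKM or lower. The summed level of 7 fibroblast markers was at most 2.87 FPKM, that of 4 endothelial markers at most 1.79 FPKM, and the pan-leukocyte gene PTPRC at most 0.004 FPKM. CD68, a lysosomal gene counted among the leukocyte markers, was at 48.8 to 90.1 FPKM. In bulk RNA, fewer cells of a type and less RNA per cell cannot be told apart.

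TGF-beta ligands are secreted in a latent form and, once activated, bring together a type II receptor (TGFBR2) and a type I receptor (TGFBR1), both of them kinases. The type I receptor phosphorylates SMAD2 and SMAD3, which join SMAD4, enter the nucleus and regulate target genes. SMAD7 and PMEPA1 are themselves induced by the pathway and dampen it, SMAD7 at the receptor and PMEPA1 by keeping SMAD2 and SMAD3 from it. In lung epithelial cells, A549 among them, the pathway is known for growth arrest and for epithelial-to-mesenchymal transition.

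SMAD3 and SMAD4 bind the short DNA word CAGAC, which reads GTCTG on the other strand. Promoter windows of 250 bases upstream of an annotated start are shown for 5 members, chosen as both ligands, the 2 members called between ASO and ASONC, and SMAD7, a direct SMAD target. PMEPA1 and SMAD7 each have another window clear of their exons, which holds no match, and the window with a match is shown. The windows come from RefSeq on GRCh38.p14, are read 5′ to 3′ on the strand of the gene and overlap no exon of it. Capitals mark CAGAC or GTCTG.
TGFB1, chr19:41353923-41354172, minus strand: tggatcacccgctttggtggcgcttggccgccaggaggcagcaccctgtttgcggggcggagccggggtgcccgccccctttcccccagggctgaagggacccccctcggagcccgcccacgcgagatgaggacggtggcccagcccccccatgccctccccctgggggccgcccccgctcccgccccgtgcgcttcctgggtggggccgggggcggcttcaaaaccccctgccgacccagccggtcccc
TGFB2, chr1:218345086-218345335, plus strand: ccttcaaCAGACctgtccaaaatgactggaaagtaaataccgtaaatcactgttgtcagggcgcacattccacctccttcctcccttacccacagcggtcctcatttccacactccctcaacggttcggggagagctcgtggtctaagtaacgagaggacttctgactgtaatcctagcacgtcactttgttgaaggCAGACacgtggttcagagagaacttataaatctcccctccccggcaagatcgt
TGFBR2, chr3:30606106-30606355, plus strand: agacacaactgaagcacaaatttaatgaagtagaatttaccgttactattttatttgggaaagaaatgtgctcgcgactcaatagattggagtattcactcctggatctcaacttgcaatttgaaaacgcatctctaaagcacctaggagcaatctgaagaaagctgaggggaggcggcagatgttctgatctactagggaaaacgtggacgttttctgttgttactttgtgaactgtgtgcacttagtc
SMAD7, chr18:48949334-48949583, minus strand: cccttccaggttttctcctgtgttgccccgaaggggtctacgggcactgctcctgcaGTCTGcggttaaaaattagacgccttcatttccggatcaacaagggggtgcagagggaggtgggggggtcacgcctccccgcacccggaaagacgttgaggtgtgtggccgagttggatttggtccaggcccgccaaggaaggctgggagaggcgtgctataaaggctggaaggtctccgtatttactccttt
PMEPA1, chr20:57690687-57690936, minus strand: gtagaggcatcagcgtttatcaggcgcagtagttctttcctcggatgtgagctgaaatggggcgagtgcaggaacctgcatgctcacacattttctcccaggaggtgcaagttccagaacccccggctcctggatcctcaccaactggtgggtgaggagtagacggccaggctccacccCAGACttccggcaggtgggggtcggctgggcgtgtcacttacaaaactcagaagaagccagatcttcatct

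The TGFB1 window, with a GC content of 76.8%, held no match. The TGFB2 window, with a GC content of 50.4%, held 2 matches, which start at -243 and -53 from the transcription start. PMEPA1 had 1 match in the window shown, at -71, and SMAD7 had 1, at -193. Over all annotated starts, the members had 27 windows, those that overlap an exon included, and 11 of them held a match, in 5 of the 9 genes. Among all 35116 promoter windows of this length, 38.0% held at least 1 match and 8.8% held at least 2, so the word is common. The AP-1 word TGANTCA, searched on both strands, was in 1 of the 27 windows and in 6.6% of all windows. A match is a run of letters and no evidence of binding.

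The members spanned a wide range of levels. In ASO libraries their order by mean FPKM was PMEPA1, TGFB1, SMAD3, TGFBR2, SMAD7, TGFB2, SMAD4, TGFBR1 and SMAD2, and PMEPA1 averaged 91.9 ± 0.419 FPKM there and SMAD2 2.82 ± 0.0937 FPKM (SD, n = 2 each). ASONC libraries had the same order except that TGFB2, at 10.1 ± 0.207 FPKM, stood above SMAD7, at 9.96 ± 0.728 FPKM. The ranges of TGFB2 and SMAD7 in ASONC overlapped, and every other neighbouring pair in every group was separated by all of its libraries. In OE and in vector libraries alike SMAD3 came first, followed by PMEPA1, TGFB1, TGFBR2, TGFB2, SMAD7, SMAD4, TGFBR1 and SMAD2. SMAD3 averaged 60.4 ± 1.08 FPKM in OE and 62.2 ± 2.03 FPKM in vector (SD, n = 2 each).

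**Figure D1:**
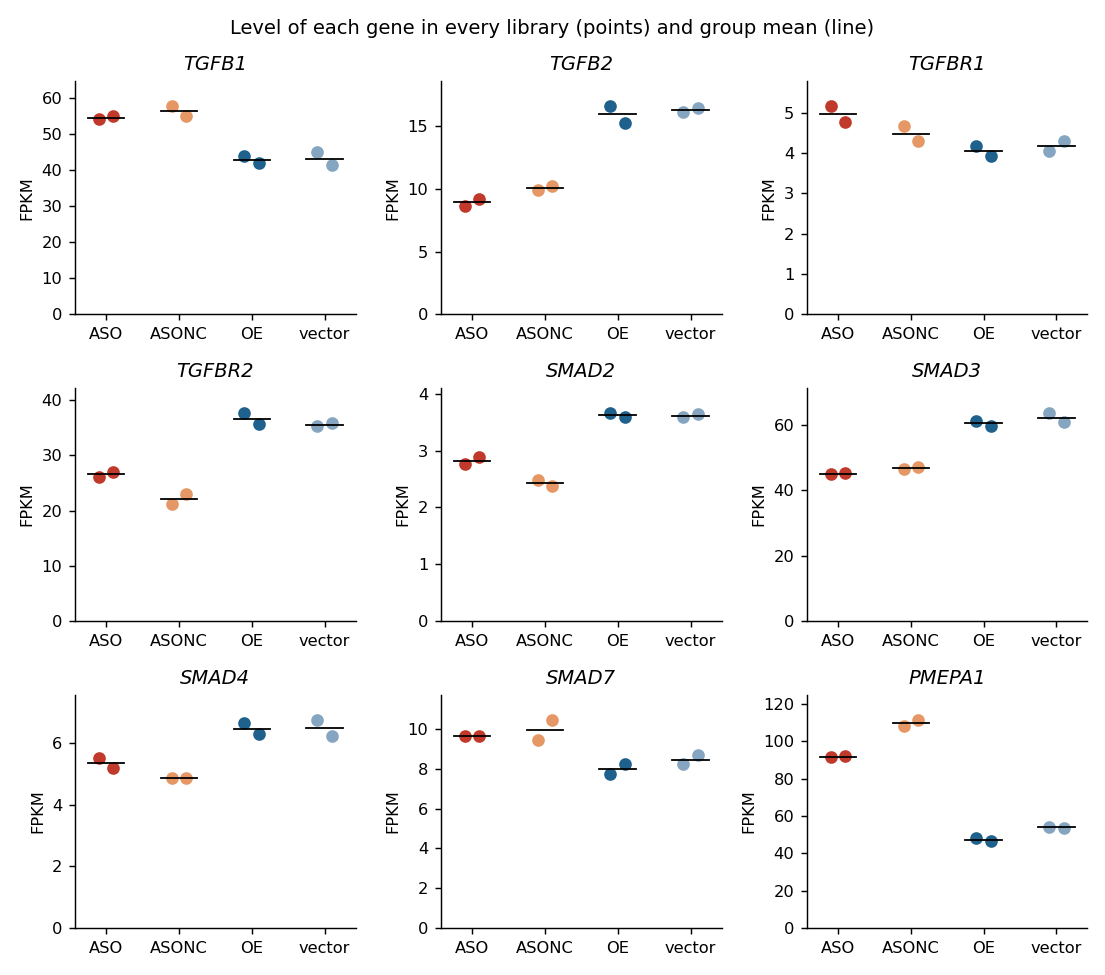
Level in FPKM as deposited (vertical axes, each from 0) of the 9 genes in the 2 libraries of each group (points), with the group mean as a line. TGFB1, SMAD7 and PMEPA1 are higher in both ASO and both ASONC libraries than in the OE and vector libraries, TGFB2, TGFBR2, SMAD2, SMAD3 and SMAD4 are lower there, and OE and vector points lie close together in every panel.

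FPKM divides reads by a length, and the length behind SMAD2 was unusual. The deposited SMAD2 values correspond to 41648 bases, and its longest coding transcript in GENCODE release 29 has 34526 bases, longer than that of any other tested gene. The second longest of the 10 coding SMAD2 transcripts has 12075 bases. SMAD2 stood last by FPKM, although its reads numbered 3657 to 5610 per library, more than those of SMAD4 (1519 to 2107), TGFBR1 (839 to 1141) or SMAD7 (1028 to 1426) in any library. The SMAD3 to SMAD2 ratio was 15.6 to 19.8 in FPKM and 2.72 to 3.45 in reads, so the distance between these transducers depends on the length used. The plain ratio of SMAD2 FPKM between groups does not depend on this length. The tested log2 differences do, because a constant is added to FPKM before the log is taken, which understates the change of low genes. The length and GC correction described below takes a transcript length for SMAD2 as well.

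On GRCh38 (GENCODE release 29) the ligand genes lie on chromosome 19 (TGFB1, 41301587 to 41353911, minus strand) and chromosome 1 (TGFB2, 218346235 to 218444619, plus strand). TGFBR1 is on chromosome 9 (99104038 to 99154192, plus strand) and SMAD3 on chromosome 15 (67063763 to 67195195, plus strand). The other SMAD genes share chromosome 18: SMAD2 (47808957 to 47931146, minus strand), SMAD7 (48919853 to 48952052, minus strand) and SMAD4 (51028394 to 51085045, plus strand). The table holds 1 value per gene and library, so isoforms cannot be told apart.

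Knockdown of AFAP1-AS1 was compared with its negative control first. At a Benjamini-Hochberg adjusted p below 0.05 in limma, 1 member rose (TGFBR2), 1 fell (PMEPA1) and 7 did not pass. Of all tested genes, 22.2% were called in this comparison, 11.3% higher and 10.9% lower, so 2 called members of 9 is close to the background. The share of all calls that were higher was 50.8%, but 62.1% under median-of-ratios scaling and 66.8% under TPM scaling. Fold changes are differences of log2(FPKM + 1) with their standard error (SE), which understate the change of low genes.

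PMEPA1 lies on the minus strand of chromosome 20 (57648392 to 57711536, GRCh38) and encodes a membrane protein that sequesters SMAD2 and SMAD3. It was at 91.6 and 92.2 FPKM in ASO libraries, against 109 and 112 FPKM in ASONC libraries. Both ASO libraries lay below both ASONC libraries. The difference was -0.26 ± 0.04 (SE), with an adjusted p of 0.000723 in limma, and the mean FPKM fell by 16.6%. The call held in all 22 alternative treatments of the data, with differences of -0.28 to -0.22.

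TGFBR2 lies on the plus strand of chromosome 3 (30606502 to 30694142) and encodes the type II receptor that binds the ligand first. It was at 26.1 and 27.0 FPKM in ASO libraries and at 21.2 and 23.0 FPKM in ASONC libraries. The groups did not overlap, and the mean was 20.2% higher in ASO. The difference was 0.26 ± 0.05 (SE), with an adjusted p of 0.00542 in limma, and it passed in 21 of 22 alternatives. Without ASO replicate 2 it was 0.23 with an adjusted p of 0.05005.

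The other ligand, receptor and SMAD genes did not pass. TGFB2, the second ligand measured, was at 8.64 and 9.23 FPKM in ASO libraries and at 9.95 and 10.2 FPKM in ASONC libraries. Its groups did not overlap, its difference was -0.16 ± 0.06 (SE) and its adjusted p was 0.086 in limma. Corrected for transcript length and GC content, TGFB2 differed by -0.28 with an adjusted p of 0.00808, so its call turned on that correction. SMAD2 was at 2.76 and 2.89 FPKM in ASO libraries against 2.49 and 2.38 FPKM in ASONC libraries, again without overlap. Its difference was 0.15 ± 0.08 (SE) with an adjusted p of 0.169 in limma, and 0.21 with an adjusted p of 0.00171 when recovered reads were tested with limma's voom.

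TGFBR1, which encodes the type I receptor kinase, was at 5.17 and 4.79 FPKM in ASO libraries and at 4.67 and 4.30 FPKM in ASONC libraries. Its difference was 0.12 ± 0.08 (SE), adjusted p 0.277 in limma. SMAD4, the shared partner of the transducers, was at 5.51 and 5.19 FPKM in ASO libraries and at 4.86 and 4.87 FPKM in ASONC libraries. Both genes were higher in both ASO libraries than in either ASONC library, by less than the test could call. SMAD3 was at 44.9 and 45.2 FPKM in ASO libraries and at 46.3 and 47.2 FPKM in ASONC libraries, a difference of -0.05 ± 0.04 (SE) with an adjusted p of 0.396 in limma.

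TGFB1 and SMAD7 were the members whose ASO and ASONC libraries overlapped. TGFB1, which encodes the most studied ligand, was at 54.1 and 55.1 FPKM in ASO and at 57.8 and 55.0 FPKM in ASONC. SMAD7 was at 9.66 FPKM in both ASO libraries and at 9.44 and 10.5 FPKM in ASONC. The 95% intervals of the difference were -0.15 to 0.06 for TGFB1 and -0.19 to 0.11 for SMAD7, and small changes in either direction lie within them. In all, 7 of the 9 members did not overlap between ASO and ASONC, and 62.5% of all tested genes did not. The median difference of the members was -0.04, and that of all tested genes 0.02.

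Fold changes between ASO and ASONC followed gene features over the whole table. Across 10612 genes they correlated with transcript length at a Spearman rho of 0.27 and with GC content at -0.45, as a description across genes that are not independent replicates. After the length and GC correction PMEPA1 (-0.22) and TGFBR2 (0.24) were still called, while the TGFB1 difference turned to 0.07 and that of TGFBR1 to -0.002. ASONC was also the group with the fewest genes at 0. The part that these features had in the members' differences was not tested beyond the correction.

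**Figure D2:**
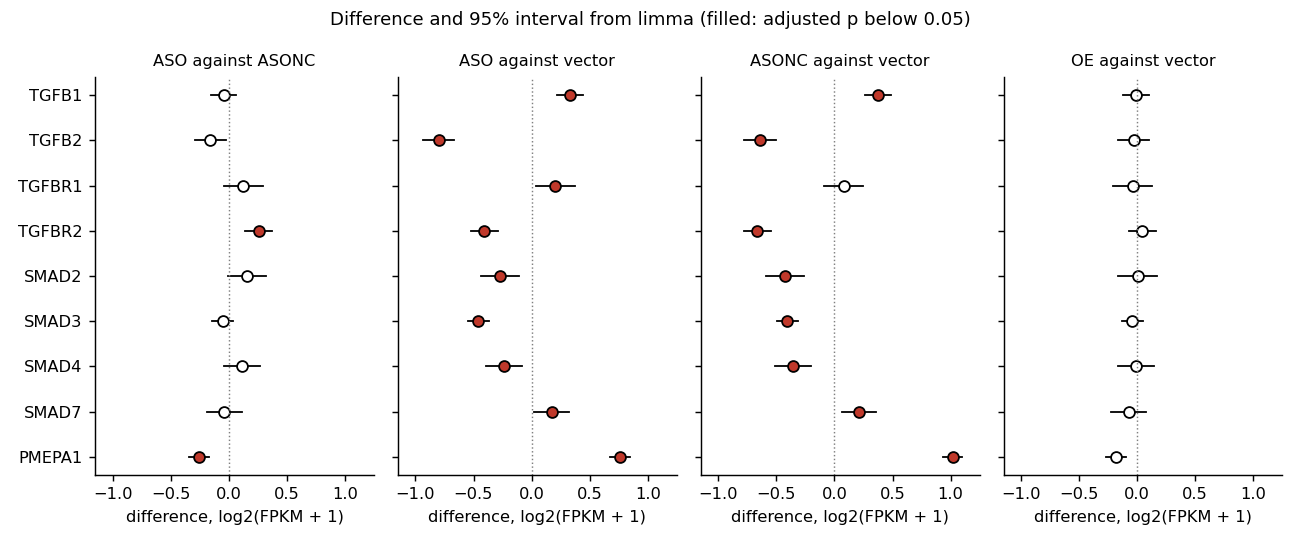
Difference of log2(FPKM + 1) between groups (horizontal axes) for the 9 genes, with the 95% interval from limma, in 4 comparisons. Filled points have an adjusted p below 0.05: 2 genes between ASO and ASONC, 9 between ASO and vector, 8 between ASONC and vector, and 0 between OE and vector.

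Overexpression of AFAP1-AS1 changed no member past the threshold. Of all tested genes, 0.0657% were called between OE and vector, 7 genes in all, and 0 of the 9 members were among them. At an unadjusted p below 0.05, 1 member and 738 of all tested genes passed in limma. With voom on the recovered reads 1 member passed, PMEPA1, and under each of the other alternatives 0 did. The share of all tested genes called with voom is not given here, so this count has no background beside it. PMEPA1 was at 48.0 and 46.8 FPKM in OE libraries, against 54.3 and 53.4 FPKM in vector libraries. It was the 1 member whose groups did not overlap, as was the case for 35.1% of all tested genes. Its difference was -0.18 ± 0.04 (SE), with an adjusted p of 0.153 in limma and of 0.0202 with voom.

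The other 8 members had differences between -0.07 and 0.04, with overlapping libraries. TGFB1 was at 43.9 and 41.9 FPKM in OE and at 45.0 and 41.5 FPKM in vector. TGFB2 was at 16.6 and 15.3 FPKM in OE and at 16.1 and 16.5 FPKM in vector. The ligands thus differed between these groups by no more than their replicates did. TGFBR2 was at 37.7 and 35.6 FPKM in OE and at 35.2 and 35.8 FPKM in vector, and its 95% interval ran from -0.07 to 0.16. SMAD7, the inhibitory SMAD, was at 7.74 and 8.26 FPKM in OE and at 8.24 and 8.70 FPKM in vector, with an interval from -0.22 to 0.08. TGFBR1, at 4.17 and 3.92 FPKM in OE and at 4.06 and 4.31 FPKM in vector, had an interval from -0.21 to 0.13.

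SMAD2, SMAD3 and SMAD4 also lay within their replicate spread. SMAD2 was at 3.66 and 3.58 FPKM in OE and at 3.59 and 3.64 FPKM in vector. SMAD3 was at 61.2 and 59.7 FPKM in OE and at 63.7 and 60.8 FPKM in vector. SMAD4 was at 6.65 and 6.29 FPKM in OE and at 6.77 and 6.25 FPKM in vector. The widest interval among these was that of SMAD2, from -0.16 to 0.17, and changes smaller than that lie within it.

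The control groups were compared with each other as well, and here most members passed. Between ASONC and vector, 3 members rose (TGFB1, SMAD7 and PMEPA1), 5 fell (TGFB2, TGFBR2, SMAD2, SMAD3 and SMAD4, of which SMAD2 and SMAD4 changed sign after the length and GC correction), and TGFBR1 did not pass. Of all tested genes 68.6% were called here, 36.8% higher and 31.8% lower, so 8 of 9 members stand beside a high background. The libraries of 8 members did not overlap, as was so for 84.7% of all tested genes. What separates the control groups besides their names is not given in the labels, so treatment and batch cannot be told apart. Of all calls between ASONC and vector 53.6% were higher, and 31.7% under TPM scaling. Markers moved along with these groups. The fibroblast sum was 2.85 to 2.87 FPKM in ASONC, against 0.643 to 0.686 FPKM in vector, mostly from COL1A1, and the endothelial sum was 0.128 to 0.338 FPKM in ASONC, against 1.38 to 1.79 FPKM in vector. The sum of 6 epithelial markers was 2623 to 2627 FPKM in ASONC, against 2082 to 2126 FPKM in vector, while CDH1 among them was lower, at 1.44 and 0.841 FPKM in ASONC, against 4.08 and 3.55 FPKM in vector. CD68 was at 89.2 and 90.1 FPKM in ASONC, against 48.8 and 50.2 FPKM in vector, and the part of these genes or of the cells they mark in the members' differences was not tested.

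Of all member differences in these 4 comparisons, that of PMEPA1 between ASONC and vector was the largest. Its ASONC levels of 109 and 112 FPKM stood against 54.3 and 53.4 FPKM in vector, a mean 104.4% higher. The difference was 1.02 ± 0.04 (SE), adjusted p 2.09e-09 in limma, and 0.96 after the length and GC correction. TGFBR2, at 21.2 and 23.0 FPKM in ASONC and at 35.2 and 35.8 FPKM in vector, fell by 0.66 on the log2 scale (adjusted p 4.66e-07 in limma), and by 0.59 after the correction. TGFB2 was at 9.95 and 10.2 FPKM in ASONC and at 16.1 and 16.5 FPKM in vector. It fell by 0.64 (adjusted p 2.25e-06 in limma), and by 0.30 after the correction. SMAD3, at 46.3 and 47.2 FPKM in ASONC and at 63.7 and 60.8 FPKM in vector, fell by 0.40 (adjusted p 4.04e-06 in limma), and by 0.32 after the correction. These 4 genes kept their direction and their call under all 22 alternatives.

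The other called members depended on how the values were treated. Fold changes between ASONC and vector correlated across genes with transcript length at a rho of -0.51 and with GC content at 0.52. TGFB1, whose longest transcript has a GC content of 63.5%, was at 57.8 and 55.0 FPKM in ASONC and at 45.0 and 41.5 FPKM in vector, a difference of 0.38 (adjusted p 3.22e-05 in limma) that was 0.004 after the correction. SMAD7 differed by 0.21 (adjusted p 0.016 in limma), by 0.05 after the correction and by 0.01 under TPM scaling. SMAD2 fell by 0.43 (adjusted p 0.00034 in limma) but was 0.33 higher after the correction (adjusted p 0.00377), and 0.18 higher (adjusted p 0.0519) with its length capped at 14003 bases. SMAD4 fell by 0.36 (adjusted p 0.000769 in limma) and was 0.09 higher after the correction (adjusted p 0.248). TGFBR1 differed by 0.08 as deposited and by 0.50 after the correction, with an adjusted p of 0.000172. The direction of SMAD2 and SMAD4 and the calls of TGFB1, SMAD7 and TGFBR1 thus changed with the treatment of the values.

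ASO libraries were set against vector as well, with the same vector libraries as above. In this comparison 62.9% of all tested genes were called, 34.1% higher and 28.8% lower, and so were all 9 members. No member overlapped between these groups (9 of 9), and 82.1% of all tested genes did not. TGFB1 (0.33), TGFBR1 (0.20), SMAD7 (0.17) and PMEPA1 (0.76) were higher. TGFB2 (-0.80), TGFBR2 (-0.41), SMAD2 (-0.27), SMAD3 (-0.46) and SMAD4 (-0.24) were lower, SMAD2 and SMAD4 with the opposite sign after the length and GC correction. All of these values are log2 differences from limma, with adjusted p from 3.35e-08 for PMEPA1 to 0.0438 for SMAD7. After the length and GC correction TGFB2 (-0.58), TGFBR2 (-0.35), SMAD3 (-0.37) and PMEPA1 (0.74) were still called, TGFBR1 was 0.49 higher, TGFB1 (0.08), SMAD7 (0.08) and SMAD4 (0.10) did not pass, and SMAD2 was 0.41 higher. Leaving out each library in turn left 6 to 9 members called, with 6 without ASO replicate 1 and 6 without vector replicate 1. TPM scaling shifted the median of all genes to -0.13 between ASO and vector, against 0.03 as deposited, and to -0.16 between ASONC and vector, against 0.04 as deposited. Relative to that shift, PMEPA1 was 0.72 higher in ASO and 0.97 higher in ASONC than in vector, and TGFBR2 differed by -0.46 and by -0.73.

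**Figure D3:**
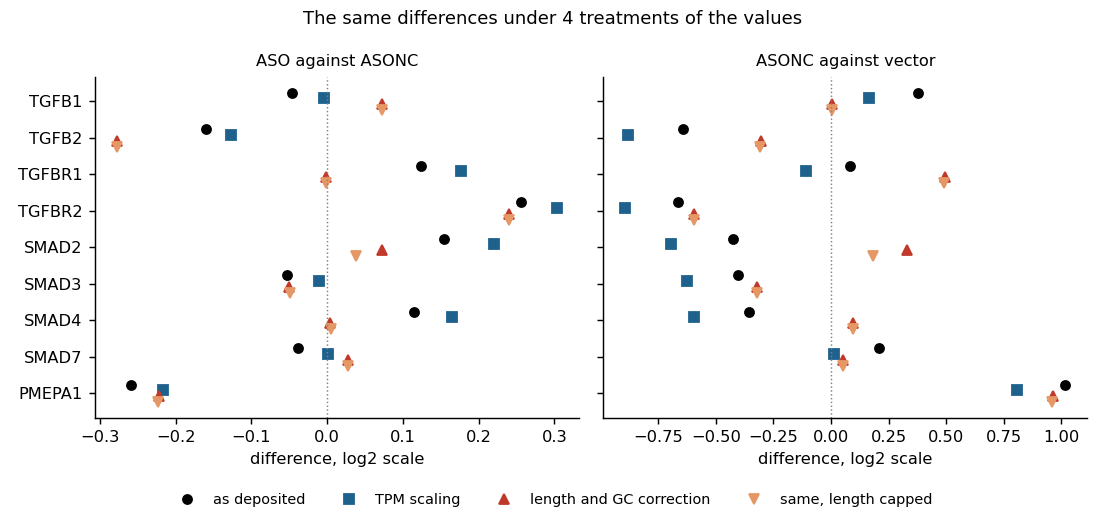
Log2 difference (horizontal axes, unequal scales) of the 9 genes between ASO and ASONC on the left and between ASONC and vector on the right, from the values as deposited, under TPM scaling, and after a correction for transcript length and GC content without and with capped lengths. Within each panel PMEPA1, TGFBR2, TGFB2 and SMAD3 stay on 1 side of 0, whereas TGFBR1, SMAD2 and SMAD4 change sides between ASONC and vector. PMEPA1 and TGFBR2 lie on opposite sides of 0 in the left and right panels.

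The ligand and receptor pairs shifted within libraries. The TGFB1 to TGFB2 ratio of FPKM was 6.27 and 5.96 in ASO and 5.81 and 5.37 in ASONC, against 2.64 and 2.75 in OE and 2.79 and 2.52 in vector. The ratio was higher in every ASO library than in any ASONC library, and all 4 of these stood well above the OE and vector libraries. With length and GC corrected for, TGFB1 differed by 0.004 and TGFB2 by -0.30 between ASONC and vector (log2), where they had differed by 0.38 and -0.64 as deposited, so the ratio shifted less. The TGFBR2 to TGFBR1 ratio was 5.04 and 5.65 in ASO and 4.54 and 5.35 in ASONC, whose libraries overlap, against 9.03 and 9.09 in OE and 8.68 and 8.31 in vector. Corrected in the same way, TGFBR2 differed by -0.59 and TGFBR1 by 0.50 between ASONC and vector (log2). They had differed by -0.66 and 0.08 as deposited, so this ratio shifted more. Such a ratio does not depend on the scaling of a library, and it does depend on the lengths used. With 2 libraries a group, an exact two-sided permutation test cannot go below 0.333, so no p is given for the ratios. TGFB1 and TGFB2 differ widely in GC content (63.5% and 38.9%), a feature that fold changes followed, and TGFBR2 and TGFBR1 less so (47.4% and 39.0%). The part of GC content in these ratios was not tested beyond the correction.

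The effect of overexpression minus the effect of knockdown was tested in the same fit. No member was called (0 of 9) in limma, 10.2% of all tested genes were (6.19% higher and 4.02% lower), and at an unadjusted p below 0.05 there were 1 member and 2806 of all tested genes. TGFBR2 came nearest, with -0.21 ± 0.07 (SE) and an adjusted p of 0.095. It passed with TPM scaling and with voom, and SMAD2 passed with voom as well. PMEPA1, which lay lower in OE than in vector and fell in ASO relative to ASONC, differed by 0.08 ± 0.05 (SE) between the effects, adjusted p 0.395. The effects were neither told apart nor shown to be equal, with a 95% interval of the difference from -0.04 to 0.20.

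Other genes of the pathway were counted in 7 lists, which hold 116 genes, 85 of them tested. They were chosen from textbook knowledge with earlier results of these data known. Between ASO and ASONC most induced targets fell. Of 32 genes that TGF-beta is known to induce, 26 were tested, 17 fell, 1 rose and 8 did not pass, and the median difference was -0.265 against 0.02 for all tested genes. Of all tested genes 10.9% were called lower and 11.3% higher here. After the length and GC correction 16 of 25 fell and 2 rose, and leaving out each library in turn left 16 to 17 lower. For all 7 lists, the shares of all tested genes are from the values as deposited. No such share is given after the correction.

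SNAI1, a transcriptional repressor of E-cadherin, was at 1.06 and 0.955 FPKM in ASO and at 7.66 and 6.07 FPKM in ASONC, and it fell by 1.96 ± 0.13 (SE), adjusted p 8.76e-07 in limma. Its ASO levels lay near those of OE, at 1.1 and 0.936 FPKM, and of vector, at 0.991 and 1.54 FPKM. CDKN1A, the cyclin-dependent kinase inhibitor p21, was at 102 and 103 FPKM in ASO and at 154 and 167 FPKM in ASONC, and it fell by 0.64 ± 0.04 (SE), adjusted p 1.22e-06. CCN2, the matricellular protein also called connective tissue growth factor, was at 11.8 and 12.0 FPKM in ASO and at 22.6 and 19.5 FPKM in ASONC, and it fell by 0.77 ± 0.07 (SE), adjusted p 1.89e-05. In each of these 3 genes both ASO libraries lay below both ASONC libraries. ANGPTL4, which encodes a secreted inhibitor of lipoprotein lipase, fell by 0.57, and BHLHE40, a transcriptional repressor, fell by 0.18. All of these passed in every alternative tried. IGFBP3, an insulin-like growth factor binding protein, was the 1 induced target that rose, by 0.25 ± 0.04 (SE), adjusted p 0.000491, and it is named after its value was seen.

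The same list stood higher in ASONC than in vector, where 16 of the 26 were called higher and 3 lower, with a median of 0.37 against 0.04 for all tested genes. Of all tested genes 36.8% were called higher and 31.8% lower, 68.6% in all, so the number called, 19 of 26, is near the background. SNAI1 was 1.80 higher there, CDKN1A 0.85 higher, CCN2 0.82 higher and ANGPTL4 2.05 higher. The 3 called lower were FN1 (-1.02, adjusted p 4.04e-09 in limma), NEDD9 (-0.59, adjusted p 1.23e-06) and IGFBP3 (-0.32, adjusted p 8.51e-06). FN1 and NEDD9 are named after their values were seen. Because ASONC enters both comparisons, neither is independent of the other. Between ASO and vector 12 of the list were called higher and 7 lower, with a median of 0.04 against 0.03 for all tested genes. Of all tested genes 34.1% were called higher and 28.8% lower there, 62.9% in all, so this number called is near the background as well. With the length and GC correction the list median became -0.03, against 0.01 for all tested genes. With quantile scaling it was -0.06 against 0.02, and with TPM scaling -0.12 against -0.13. Between OE and vector 0 of the 26 were called, and their median was -0.05 against 0.0024. BHLHE40 (-0.18, adjusted p 0.139 in limma), ANGPTL4 (0.25, adjusted p 0.557) and TGFBI (-0.10, adjusted p 0.571), which encodes a secreted matrix protein, had the smallest p-values of the list there. TGFBI was at 596 and 590 FPKM in ASO and at 577 and 546 FPKM in ASONC, a difference of 0.08 that did not pass (adjusted p 0.132). Between ASONC and vector it differed by 0.05 (adjusted p 0.194), and by -0.21 under quantile scaling. TPM scaling gave -0.17, with the median of all genes at -0.16.

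**Figure D4:**
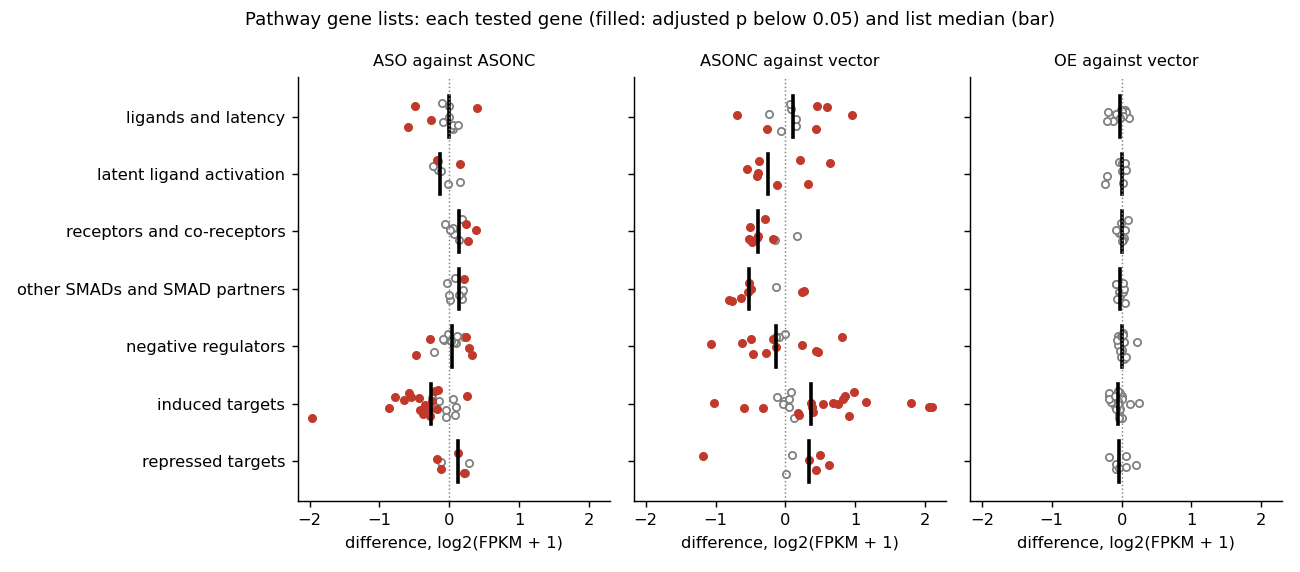
Difference of log2(FPKM + 1) (horizontal axes) for each tested gene of 7 lists of pathway genes, with the list median as a bar, in 3 comparisons. Filled points have an adjusted p below 0.05. Induced targets lie mostly left of 0 between ASO and ASONC, with a median of -0.265, and mostly right of it between ASONC and vector, with a median of 0.37, and no point is filled between OE and vector.

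Genes that TGF-beta is known to repress gave 2 of 7 tested higher and 2 lower between ASO and ASONC, beside 11.3% and 10.9% of all tested genes, and a median of 0.12. Corrected for length and GC, 3 were called higher and 0 lower, without a share of all tested genes to set beside them. The median was then 0.27 against 0.03 for all tested genes. ID1 rose by 0.22 ± 0.04 (SE, adjusted p 0.00257 in limma) and ID3 rose by 0.12 (adjusted p 0.0346), both inhibitors of basic helix-loop-helix factors. ID2, of the same family, fell by 0.11 (adjusted p 0.0471), and MYC, a growth-promoting transcription factor, fell by 0.17 (adjusted p 0.0151). The calls of ID3, ID2 and MYC were lost under some alternatives, with adjusted p up to 0.178 for ID3, 0.68 for ID2 and 0.179 for MYC. The repressed list, too, stood higher in ASONC than in vector as deposited, with 4 of the 7 called higher and 1 lower. Its median was 0.34 against 0.04 for all tested genes, of which 36.8% were called higher and 31.8% lower. After the length and GC correction 1 was called higher and 3 lower, with a median of -0.10. Between OE and vector 0 of the 7 were called, and ID2 (-0.18, adjusted p 0.139), CEBPD (0.21, adjusted p 0.697), a transcription factor gene, and ID3 (-0.08, adjusted p 0.731) had the smallest p-values.

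Other receptors and co-receptors were higher or not called between ASO and ASONC: 3 of 9 tested rose and 0 fell, with a median of 0.13 against 0.02 for all tested genes, of which 11.3% were called higher. TGFBR3, the betaglycan co-receptor that presents TGFB2, rose by 0.38 ± 0.10 (SE, adjusted p 0.0154 in limma). BMPR1A rose by 0.27 (adjusted p 0.0265) and BMPR2 by 0.23 (adjusted p 0.0336), both receptors for bone morphogenetic proteins. After the length and GC correction 1 of the 9 was called, and leaving out each library in turn left 0 to 3. Of the other SMADs and their partners, SMAD5, a transducer of bone morphogenetic protein signals, was the 1 gene of 9 called, at 0.20 with an adjusted p of 0.044. It passed in 7 of 22 alternatives, and SMAD6, an inhibitory SMAD, missed the threshold at 0.18 with an adjusted p of 0.0511. ZFYVE9, the SMAD anchor SARA, differed by 0.20 (adjusted p 0.104). The smallest p-values between OE and vector were those of BMPR1B (0.10, but -0.00048 without vector replicate 1, adjusted p 0.933), BAMBI (-0.08, but 0.045 without vector replicate 2, adjusted p 0.958) and ACVR1 (-0.04, adjusted p 0.969) among receptors, and of ZFYVE9 (-0.08, adjusted p 0.931), CREBBP (-0.07, adjusted p 0.935) and TCF3 (0.05, adjusted p 0.935) among SMAD partners.

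Among other ligands and latency proteins 1 of 12 tested rose and 3 fell between ASO and ASONC, beside 11.3% and 10.9% of all tested genes. INHBB, an activin subunit, rose by 0.39 ± 0.08 (SE, adjusted p 0.00372 in limma). LTBP2, a latent TGF-beta binding protein family member, fell by 0.59 (adjusted p 0.000614), GDF15, a stress-induced cytokine, fell by 0.26 (adjusted p 0.0013), and FST, the activin antagonist follistatin, fell by 0.49 (adjusted p 0.00511). Corrected for length and GC, GDF15 differed by -0.08 (adjusted p 0.148). Among genes that activate latent ligand, ITGB1, the integrin beta 1 chain, rose by 0.16 (adjusted p 0.00345) and PLAU, the urokinase plasminogen activator, fell by 0.18 (adjusted p 0.00298), of 8 tested. The call of ITGB1 was lost in some alternatives, the length and GC correction among them, with differences down to 0.063 and adjusted p up to 0.116. ITGAV, the integrin alpha V chain, differed by 0.15 (adjusted p 0.0931). Between OE and vector the smallest p-values were those of GDF15 (0.11, adjusted p 0.593), FST (-0.21, adjusted p 0.741) and the bone morphogenetic protein gene BMP7 (-0.13, adjusted p 0.875) among ligands. Among activators they were those of ITGB6, an integrin beta chain (-0.24, adjusted p 0.711), MMP2, a matrix metalloproteinase (-0.21, adjusted p 0.793), and ITGB1 (-0.03, adjusted p 0.915).

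Among 14 tested genes of the list of negative regulators, USP9X included, 3 rose and 2 fell between ASO and ASONC, beside 11.3% and 10.9% of all tested genes. NEDD4L, a ubiquitin ligase that acts on activated SMADs, fell by 0.48 ± 0.07 (SE, adjusted p 0.00046 in limma) and did so in every alternative. SKIL, the SMAD corepressor SnoN, rose by 0.32 (adjusted p 0.00784). USP9X, a deubiquitinase that favours SMAD4 activity and so is no inhibitor of the pathway, rose by 0.28 (adjusted p 0.00574). It stays in the counts of this list. SMURF1, a ubiquitin ligase, fell by 0.27 (adjusted p 0.00992) and WWP1, another, rose by 0.24 (adjusted p 0.0361). SMURF1 and WWP1 are named after their values were seen. After the length and GC correction 0 rose and 3 fell. Between OE and vector, 0 genes of each of these 5 lists were called, and among negative regulators TGIF2, a transcriptional corepressor (0.22, adjusted p 0.72), STUB1, a ubiquitin ligase (0.06, but -0.013 without vector replicate 1, adjusted p 0.902), and NEDD4L (-0.06, adjusted p 0.938) had the smallest p-values.

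Over the 8 libraries some tested genes followed a member closely, as a description of libraries that share groups and so are not independent points. The highest Pearson r of log2(FPKM + 1) was with IRF2BPL for TGFB1 (0.996), AHR for TGFB2 (0.998), SCD5 for TGFBR1 (0.977), SCRN1 for TGFBR2 (0.998) and CCP110 for SMAD2 (0.999). For the other members it was with SBF2 for SMAD3 (0.998), MLH3 for SMAD4 (0.994), TMEM159 for SMAD7 (0.99) and NUDT18 for PMEPA1 (0.997). EGR1, an immediate early transcription factor gene, was the third for PMEPA1 (0.995). Among the members themselves r ran from -0.98, for example between PMEPA1 and TGFBR2, to 0.99, for example between TGFB2 and SMAD3. These values were not computed within groups, and for most members the ASO and ASONC libraries lie apart from the OE and vector libraries.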

How the data were processed

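RNA was extracted with TRIzol and libraries were made with a VAHTS kit, per the labels' protocols. The submitters' processing notes list GRCh38, HISAT2, HTSeq, featureCounts and R 3.2.0 without their roles. Annotation, strand use and filters: not given in the sources used here. FPKM values, 1 column per library, were deposited by the authors. Whole reads were recovered from the FPKM steps for 17055 of 17056 genes (tolerance 0.02 reads), in all 33359120 to 37172055 per library. Between 839 and 22683 reads lie behind each member's value. GENCODE release 29 gave positions, transcript length and GC content for 99.7% of tested genes.

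Differences of log2(FPKM + 1) were tested two-sided with limma (version 3.58.1, R 4.3.3) by lmFit, contrasts.fit and eBayes with trend. The 10648 genes averaging at least 1 FPKM and all 8 libraries entered 1 fit, with 4 residual degrees of freedom. Calls required a Benjamini-Hochberg adjusted p below 0.05 over these genes. The script was tested on simulated data. Members and lists were chosen with earlier results of these data known. One gene of the induced targets list is not reported here and was left out of that list's counts, though not of the fit. From each list the 3 genes with the smallest p in OE against vector, and in ASO against ASONC, were named. Every list gene whose overexpression and knockdown effects differed was named as well, a choice made after the values were seen. Libraries of a group differed beyond sampling noise (5.05 to 5.75 in chi-square per degree of freedom). Groups share replicate numbers, but same-numbered libraries did not deviate together (r from -0.061 to 0.062). The main fit did not pair them, though this check cannot show whether they were prepared together. Alternatives changed the pseudocount, filter, scaling, samples in the fit, spread estimate and test, added a replicate block or a length and GC correction, or left out 1 library. A length cap in that correction was added after seeing the data.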

Additional observations from a re-analysis of the deposited data

Results flagged for a closer look

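For 18 pathway genes outside the 9 members, the overexpression effect minus the knockdown effect, tested in limma's fit of all 8 libraries, passed an adjusted p of 0.05. Among induced targets these were SNAI1 (1.81, adjusted p 7.52e-05), CDKN1A (0.62, adjusted p 7.22e-05), CCN2 (0.89, adjusted p 0.000175), ANGPTL4 (0.82, adjusted p 0.00142), COL7A1 (0.45, adjusted p 0.00563), SPHK1 (0.76, adjusted p 0.0106), CCN1 (0.37, adjusted p 0.0117), ITGA2 (0.43, adjusted p 0.0165), IGFBP3 (-0.33, adjusted p 0.00181) and TGFBI (-0.18, adjusted p 0.0406). Among repressed targets they were ID1 (-0.30, adjusted p 0.00601) and ID3 (-0.20, adjusted p 0.0317). Among ligands, latency proteins and activators they were GDF15 (0.37, adjusted p 0.00247), LTBP2 (0.50, adjusted p 0.023), PLAU (0.20, adjusted p 0.0238) and ITGB1 (-0.19, adjusted p 0.0152). Among negative regulators they were NEDD4L (0.42, adjusted p 0.0179) and SKIL (-0.37, adjusted p 0.0392). All are log2 differences. No gene of these lists was called between OE and vector, and the test uses the same ASONC libraries as ASO against ASONC.

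Of the 18, 12 were still called after the length and GC correction and 5 were not, and CCN1 had no length and GC value. Other list genes gained a call with the correction. Induced targets had 9 called higher and 3 lower after it, against 8 and 2 as deposited. Ligands and latency proteins had 0 higher and 1 lower, against 2 and 0 as deposited. The 5 that lost the call were GDF15 (0.16, adjusted p 0.0887), LTBP2 (0.45, adjusted p 0.0535), PLAU (0.11, adjusted p 0.132), ITGB1 (-0.09, adjusted p 0.144) and SKIL (-0.20, adjusted p 0.243). None of the 9 members passed this test in limma, in which 10.2% of all tested genes did.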

How the results depend on the processing

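With 2 libraries a group, the spread of each gene rests on few libraries. In the main fit it was pooled over all groups, so it does not reflect the compared libraries alone. The same ASONC libraries enter both ASO against ASONC and ASONC against vector. Under 22 alternatives the 45 member differences gave 971 values, of which 877 kept direction and call, 34 lost the call, 11 gained it and 49 changed sign, 37 of these in differences that were not called. The replicate block left the number of members called at 2 between ASO and ASONC, 8 between ASONC and vector, 9 between ASO and vector, 0 between OE and vector and 0 for gain minus loss, and it changed no member's call.

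The number called between ASO and ASONC was 1 without ASO replicate 2 and otherwise 2 to 3. It was 5 between ASONC and vector with the length cap. With voom it was 1 between OE and vector and 2 for gain minus loss (overexpression effect minus knockdown effect), and with TPM scaling 1 for gain minus loss. The shares of all tested genes called under these alternatives are not given here. Leaving out each library in turn gave 0 to 0 between OE and vector, 1 to 2 between ASO and ASONC, 7 to 8 between ASONC and vector, 6 to 9 between ASO and vector and 0 to 0 for gain minus loss. A fit to the compared libraries alone could not be had for gain minus loss.

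Signs changed as follows, with log2 differences under the alternative; the cause was not tested. With the length and GC correction, with or without the replicate block, SMAD2 was 0.33 and SMAD4 0.095 between ASONC and vector, SMAD2 0.41 and SMAD4 0.098 between ASO and vector, TGFB1 0.072, TGFBR1 -0.0023 and SMAD7 0.027 between ASO and ASONC, SMAD4 0.000388 between OE and vector, and TGFB1 -0.11 for gain minus loss. With the length cap these were 0.18, 0.097, 0.22, 0.10, 0.072, -0.0018, 0.027, 0.00036 and -0.11 in the same order. TPM scaling gave TGFBR1 -0.11 between ASONC and vector (0.055 relative to the median of all genes, which was at -0.16), SMAD7 0.000926 between ASO and ASONC, SMAD2 -0.0020 between OE and vector, and TGFB1 -0.013 and SMAD3 -0.036 for gain minus loss. SMAD3 for gain minus loss was -0.018 with median-of-ratios and -0.014 with quantile scaling. TGFBI between ASONC and vector was -0.0088 with median-of-ratios, -0.21 with quantile and -0.17 with TPM scaling (-0.0016 relative to that median).

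Leaving out single libraries changed signs among differences that were not called. Between OE and vector the lowest and highest were -0.067 and 0.046 for TGFB1, -0.088 and 0.027 for TGFB2, -0.0096 and 0.016 for SMAD2, -0.057 and 0.042 for SMAD4, -0.00048 and 0.19 for BMPR1B, -0.20 and 0.045 for BAMBI and -0.013 and 0.13 for STUB1. For gain minus loss they were -0.021 and 0.092 for TGFB1, -0.021 and 0.045 for SMAD3 and -0.10 and 0.033 for SMAD7, and between ASO and ASONC -0.11 and 0.030 for SMAD7. None of these was past the threshold.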
